A study of Mus musculus with 6 samples.

Results

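The Zscan4 genes of chromosome 7, together with Dux and Zfp352, are genes of the 2-cell mouse embryo whose transcripts were found here in kidney cells at embryonic day 18.5. The 6 genes described, Zscan4c, Zscan4d, Zscan4e, Zscan4f, Dux and Zfp352, are 6 of the 26567 genes to which the transcripts could be assigned. They were chosen from their estimated counts in the same libraries, so their levels are given as a description and carry no test. Because the Zscan4 copies are nearly identical, counts were also summed over all 6 annotated copies, which adds Zscan4b and Zscan4-ps2 to the 4 named ones. The comparison sets 3 libraries labelled Dnmt1 KO, with the genotype Dnmt1 -/-, against 3 libraries labelled Dnmt1 HET, with the genotype Dnmt1 +/-. All came from kidneys of C57BL/6 embryos at day 18.5, were sorted by flow cytometry as cap mesenchyme, the nephron progenitor tissue that caps each ureteric tip, and carried Six2.Cre and a conditional Dnmt1 allele. Six2 is active in nephron progenitors and there drives the Cre recombinase, so the HET cells have also lost 1 copy of Dnmt1 and no library without a deletion was part of the comparison. Neither the number of embryos behind a library nor their litters are given by the labels, so each p-value measures only the spread between these samples.

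Zscan4 proteins carry a SCAN domain and zinc fingers, bind DNA and are known from the 2-cell embryo and from a rare, fluctuating state of mouse embryonic stem cells, in which they have been linked to telomere lengthening. Dux is a double homeodomain transcription factor that binds retroviral promoters and turns on Zscan4 and other genes at the start of transcription in the mouse embryo. Zfp352 is a zinc finger gene of the same stage. Dnmt1 maintains DNA methylation when cells divide, and none of these genes is a known marker of the kidney.

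The Zscan4 copies lay within 618 kb of chromosome 7, from position 11486098 to 12104460 of the NCBIM37 build, 3 on each strand. Zscan4b (chr7:11486098-11490399), Zscan4d (chr7:11746992-11751497) and Zscan4e (chr7:11891727-11896031) were on the minus strand. Zscan4c (chr7:11591071-11595896), Zscan4f (chr7:11983264-11988090) and Zscan4-ps2 (chr7:12099659-12104460) were on the plus strand. Dux lay on the minus strand at chr10:57685047-57688454 and Zfp352 on the plus strand at chr4:89885511-89892393. All are annotated as protein coding in that release, Zscan4-ps2 included. The Zscan4 coding sequences were 96.5% to 99.7% identical over 15 pairs, with Zscan4c and Zscan4f differing at 6 of 1521 aligned bases and Zscan4b and Zscan4e at 4 of 1519.

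The windows upstream of 4 Zscan4 genes and of Zfp352 are shown because they carry the sequence features that these genes share and those in which they differ. Each Zscan4 window is 150 bases of the RefSeq promoter table (GRCm38.p6), 5′ to 3′ on the strand of the gene, from chr7:10905032-10905181 for Zscan4b, chr7:11005591-11005740 for Zscan4c, chr7:11166164-11166313 for Zscan4d and chr7:11397784-11397933 for Zscan4f. Capitals mark the motif TATAAAAG, a form of the TATA box.
Zscan4b: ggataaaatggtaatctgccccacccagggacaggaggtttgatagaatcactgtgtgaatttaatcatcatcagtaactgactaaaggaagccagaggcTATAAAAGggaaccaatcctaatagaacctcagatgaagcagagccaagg
Zscan4c: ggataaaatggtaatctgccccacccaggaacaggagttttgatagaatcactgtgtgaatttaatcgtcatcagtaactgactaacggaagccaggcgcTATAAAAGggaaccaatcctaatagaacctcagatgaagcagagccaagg
Zscan4d: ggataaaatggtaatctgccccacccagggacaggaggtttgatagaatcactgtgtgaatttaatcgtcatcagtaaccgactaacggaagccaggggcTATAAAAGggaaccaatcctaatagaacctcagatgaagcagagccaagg
Zscan4f: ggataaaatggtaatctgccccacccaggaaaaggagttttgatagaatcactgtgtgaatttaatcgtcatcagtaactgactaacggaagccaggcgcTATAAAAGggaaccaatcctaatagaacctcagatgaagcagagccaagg
The Zfp352 window is the whole table entry of 300 bases at chr4:90218570-90218869 (GRCm38.p6), and its capitals mark a repeated unit of 10 letters, GACAACACAC.
Zfp352: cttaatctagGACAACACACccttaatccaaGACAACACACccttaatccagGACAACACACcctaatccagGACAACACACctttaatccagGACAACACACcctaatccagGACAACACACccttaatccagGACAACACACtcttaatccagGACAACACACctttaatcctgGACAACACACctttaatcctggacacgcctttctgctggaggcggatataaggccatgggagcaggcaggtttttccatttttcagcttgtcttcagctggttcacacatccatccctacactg
No entry of the table was matched for Zscan4e, Dux or Zscan4-ps2.

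The Zscan4 windows were 95.4% to 99.3% identical over 6 pairs, and those of Zscan4c and Zscan4f, the copies with the highest levels given below, differed at 1 of 150 positions. TATAAAAG stood in all 4 windows, 31 bases before the annotated start of Zscan4b and Zscan4f, 54 before that of Zscan4c and 65 before that of Zscan4d. On either strand, the motif occurs in 560 of 32851 table entries (1.7%), each covering 250 bases before to 50 after a start, and the shorter TATAAA, which it contains, in 13.6%. Few CpG dinucleotides, the sites that Dnmt1 keeps methylated, were present. Over 300 bases there was 1 in Zscan4b, 4 in Zscan4c, 3 in Zscan4d, 3 in Zscan4f and 2 in Zfp352, against a median of 7 over all promoters. Their ratio of observed to expected CpG was between 0.06 and 0.24, against a median of 0.38. GATTNAATC, the core of the Dux binding sequence, found in 0.268% of all promoters, and TGCACAC, written after that of Zscan4c and found in 4.4%, were in none of the 5 windows on either strand. In Zfp352 the unit GACAACACAC occurred 9 times with 20 to 21 bases between starts. It occurred in 17 promoters (0.0517%), and no other promoter held it more than 2 times. The motifs were chosen with the windows in view, and these matches describe the letters only.

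Libraries held 46741667 to 61585484 estimated counts, so that 3 counts equalled 0.051 to 0.0662 CPM (counts scaled by library size, with TMM factors for composition), a limit that covers counting error only. Dnmt1 itself was at 20.9, 18.6 and 14.9 CPM in KO libraries, against 40.0, 52.4 and 51.7 CPM in HET libraries, and the groups did not overlap. Defining markers of cap mesenchyme were present, and Six2 was at 75.0, 105 and 95.8 CPM in KO libraries and at 99.9, 114 and 124 CPM in HET libraries. A gene is said to be called where edgeR's quasi-likelihood test gave a Benjamini-Hochberg adjusted p of at most 0.05. Of 16989 genes tested, 836 (4.92%) were called higher in KO and 327 (1.92%) lower. Lower calls outnumbered higher ones on other scales, with 731 higher and 1883 lower with library totals and 457 higher and 761 lower with limma on log2(TPM + 1) where the mean TPM was at least 1. Library totals moved the median log2 fold change over all genes to -0.166. The 13 markers of cap mesenchyme summed to 1473 to 1783 CPM in KO and 2121 to 2194 CPM in HET libraries. Of these, Hoxd11, Tmem100, Wt1 and Cited1 were called lower (30.8%, against 1.92% of all genes) and none higher. The call of Cited1 was lost without any 1 HET library (edgeR adjusted p = 0.114 to 0.119), and that of Wt1 without KO replicate 2 (edgeR adjusted p = 0.0604). Meox1, Pax2 and Gdnf, picked after their values were seen, had log2 fold changes of 0.54, 0.06 and 0.03. DESeq2 called Meox1 higher (adjusted p = 0.00859). Other cell types were also represented. Endothelial markers summed to 220, 90.8 and 49.1 CPM in KO replicates 1 to 3, against 35.1 to 41.9 CPM in HET libraries. Stromal markers summed to 811, 393 and 323 CPM in KO and 248 to 310 CPM in HET libraries, and tubule and ureteric markers to 170, 80.0 and 44.5 CPM in KO and 43.6 to 74.8 CPM in HET libraries. Macrophage markers summed to 18.8 to 24.4 CPM in KO and 15.1 to 16.3 CPM in HET libraries.

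Taken as 1 family, Zscan4 transcripts were abundant in every KO library and at low counts in HET libraries. The summed estimated counts were 34725, 47387 and 36313 in the KO libraries, against 89, 22 and 4 in the HET libraries. On the CPM scale these were 737, 914 and 713 in KO and 1.73, 0.374 and 0.0883 in HET. The 3 KO libraries lay within a factor of 1.28 of each other and far above every HET library. The means were 788 ± 110 CPM in KO and 0.731 ± 0.877 CPM in HET (SD, n = 3 each), a ratio of 1078. HET replicate 1 held most of the HET counts, and without it the HET mean was 0.228 CPM and the ratio 3405. In bulk RNA, a high level in few cells and a low level in many cannot be told apart, and the same holds for the share of cells in which Dnmt1 was lost.

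Per length, the family was among the more abundant transcripts of the KO cells. Its summed TPM (corrected for transcript length) was 492, 550 and 459 in the KO libraries, against 1.37, 0.237 and 0.207 in the HET libraries. When all genes were ordered by TPM with the family as 1 entry, it ranked 261, 234 and 272 of 26562 in KO and 12506, 16158 and 16219 in HET. In the KO libraries its TPM was 11.8, 10.2 and 9.07 times that of Six2, the progenitor gene whose promoter drives Cre. The family took 0.0725%, 0.0829% and 0.0673% of the KO counts assigned to genes.

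**Figure D1:**
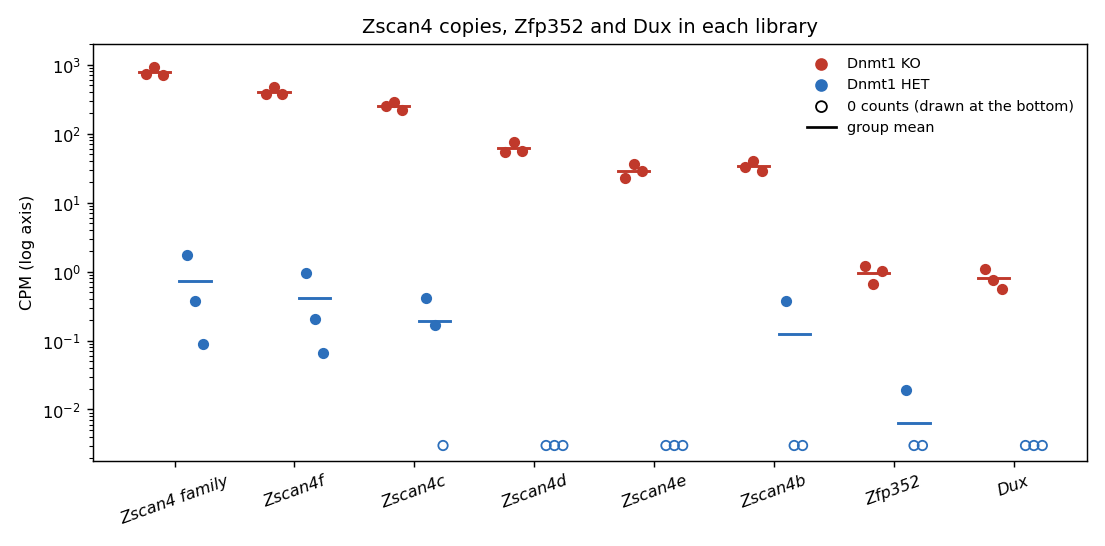
CPM (log axis) of the Zscan4 family sum, of Zscan4b, Zscan4c, Zscan4d, Zscan4e and Zscan4f, and of Zfp352 and Dux in each library, 3 Dnmt1 KO in red on the left and 3 Dnmt1 HET in blue on the right; horizontal lines are group means and open circles at the bottom are libraries with 0 counts. The family lies between 713 and 914 CPM in KO and between 0.0883 and 1.73 CPM in HET, and Zfp352 and Dux lie near 1 CPM in KO.

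Zscan4f was assigned the highest level of the copies. It was at 373, 473 and 380 CPM in KO libraries, against 0.953, 0.204 and 0.0662 CPM in HET libraries, and its mean TPM was 293 ± 20.9 in KO and 0.386 ± 0.412 in HET (SD, n = 3 each). Zscan4c, the main form described in mouse embryonic stem cells, was at 253, 290 and 220 CPM in KO libraries, against 0.408, 0.17 and 0 CPM in HET libraries. For both copies the HET counts were highest in replicate 1, with 48.9 for Zscan4f and 20.9 for Zscan4c.

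Zscan4d, the main form described in 2-cell embryos, had no count in any HET library. Its level was 54.5, 75.1 and 57.0 CPM in KO libraries, which is at least 1062-fold higher than 3 counts in each HET library would give. Zscan4e was also at 0 in all HET libraries and at 23.1, 35.9 and 28.3 CPM in KO libraries, at least 497-fold higher on the same rule. Both bounds take the division of reads among copies as given. HET replicate 1 had 19.2 counts on Zscan4b, whose coding sequence is 99.7% identical to that of Zscan4e, so the bound for Zscan4e may be too high. Zscan4b, which was not among the 6 genes chosen, was at 33.3, 39.6 and 28.9 CPM in KO libraries and at 0.369, 0 and 0 CPM in HET libraries. Zscan4-ps2 was assigned no count in any KO library and 1 count in HET replicate 3. Its annotated coding sequence is 99.7% identical to that of Zscan4f, and its deposited length is 595 bases against 2277 in the annotation. Its reads may therefore have been assigned to other copies, and its 0 does not show that it was silent.

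The division of the family among copies was alike in the 3 KO libraries. Zscan4f took 58.7% ± 1.44 of the summed TPM, Zscan4c 24.8% ± 1.56 and Zscan4d 7.72% ± 0.479 (SD, n = 3). Zscan4e took 4.44% ± 0.578 and Zscan4b 4.42% ± 0.29, which overlap and set no order between these 2. The gaps between Zscan4f, Zscan4c and Zscan4d, and from Zscan4d to the other 2, were larger than the spread between libraries. That spread measures how alike the division was in each library, not whether it was right. Of the estimated counts, Zscan4f took 51.9%, Zscan4c 32.3% and Zscan4d 7.86% on average. How kallisto divided reads among copies this similar is uncertain. In the transcripts of the annotation, 40.1% of the 31-base words of Zscan4d occurred in no other Zscan4 copy, against 13.7% for Zscan4c, 4.72% for Zscan4e, 4.37% for Zscan4b, 4.14% for Zscan4-ps2 and 1.38% for the Zscan4f transcript compared. Deposited lengths also differed from the annotation, at 595 against 2277 bases for Zscan4-ps2, 1518 against 1745 for Zscan4e and 1829 against 1992 for Zscan4d. The shares therefore depend on an index that was not seen, which the family sum depends on less.

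**Figure D2:**
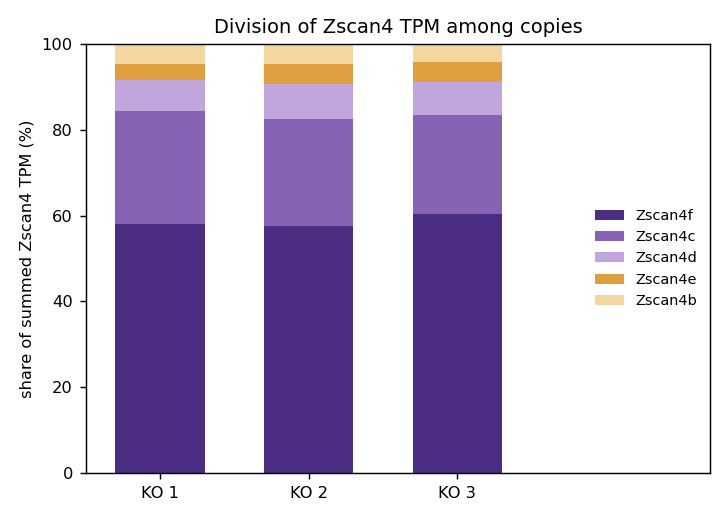
Share of the summed Zscan4 TPM (percent, vertical axis) taken by each copy in the 3 Dnmt1 KO libraries, as stacked bars. Zscan4f (58.7% on average) and Zscan4c (24.8%) make up most of each bar, in nearly equal proportion in every library.

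Within Zscan4f, 3 annotated transcripts shared the reads. Zscan4f-001, of 1829 bases, took 32.8% to 35.5% of the family TPM in KO libraries, Zscan4f-002 took 10.8% to 11.1% and the 521-base Zscan4f-003 took 11.3% to 15.2%. Of the Zscan4c transcripts, Zscan4c-001 took 19.5% to 22.5% and Zscan4c-201 took 3.5% to 3.85%.

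Dux, the activator placed above Zscan4 in the 2-cell embryo, was detected at a far lower level. It had 50.7, 39.5 and 27.8 estimated counts in the KO libraries and none in the HET libraries. These equal 1.08, 0.752 and 0.55 CPM in KO (0.795 ± 0.268, SD, n = 3), at least 13.6-fold higher than 3 counts in each HET library. All of them fell on the transcript Dux-001, for which the deposited length is 1486 bases against 2586 in the annotation, and the shorter Dux-201 was at 0 in every library. Dux is a tandemly repeated gene in the mouse, so reads of other copies may be included or lost. The 3 KO values had the same order as Dnmt1 and as the marker sums of endothelium, stroma and tubule. These sums were 220, 90.8 and 49.1 CPM for endothelium, 811, 393 and 323 CPM for stroma and 170, 80.0 and 44.5 CPM for tubule. The Zscan4 family was instead highest in KO replicate 2. An order of 3 values on so few Dux counts carries little weight. The part of other cell types in the Dux values was not tested.

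Zfp352 had 57, 34 and 52 counts in the KO libraries, against 1, 0 and 0 in the HET libraries. On the CPM scale these were 1.21, 0.656 and 1.02 in KO and 0.0194, 0 and 0 in HET. The ratio of the summed counts, scaled by library size, was 148, with a 95% counting interval of 26.2 to 5901. Per length, Zfp352 at 0.578 ± 0.179 TPM and Dux at 0.63 ± 0.235 TPM in KO libraries did not differ beyond their spread (SD, n = 3 each), and both were under the 22.2 ± 3.11 TPM of Zscan4b. All 6 chosen genes passed the filter on low counts through their KO libraries, since in HET libraries Zscan4d, Zscan4e and Dux were at 0 and the others had few counts. Since the genes were chosen on this contrast, no test of them is given.

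The few Zscan4 counts in the HET libraries were compared with those of other genes that were nearly silent there. Among 32 other genes with at least 20 CPM in KO and under 1% of that level in HET, the median level in HET replicates 1 to 3 was 0.0794%, 0.144% and 0.14% of the KO mean. The family stood at 0.22%, 0.0475% and 0.0112% of its KO mean in the same libraries. It was thus above the median in HET replicate 1, where 12 of the 32 were at or above it, and below the median in the others. The 32 genes were chosen on this same contrast, which caps their HET levels. Of them, 11, 11 and 12 were at 0 in HET replicates 1 to 3. A single HET count is also a larger percentage of a gene near 20 CPM than of the family, so these ranks are a description. Whether these HET counts came from HET cells or entered in another way was not tested.

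The other genes of the 2-cell program were taken from a list of 49 symbols, of which 34 were found and 20 passed the filter on low counts. Of these, 13 were called higher in KO (65.0% of the 20 tested, against 4.92% of all genes) and none lower, while 7 did not pass and 14 were below the filter (edgeR; DESeq2 called 14 higher and none lower, and at an unadjusted p of 0.05 the numbers were 13 higher and 1 lower). Of the 13, 10 had 3 counts or fewer in all HET libraries together. Genes that are silent in HET could pass the filter only where KO libraries expressed them, so the share among tested genes is a description. The list was also chosen with earlier results of these data known, so the adjusted p-values given below for its genes are a description as well. The same holds for their median log2 fold change, which was 8.08, or 6.25 with the genes at 0 in HET set to their lower bound, against -0.003 over all genes. The 13 lay on 3 chromosomes (4, 7 and 12), none of them on the Zscan4 segment.

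On chromosome 4, 4 genes spread over 42447 kb were called. Gm13040 was at 54.7, 69.2 and 52.8 CPM in KO libraries and at no more than a fraction of 1 count in HET libraries, at least 1006-fold higher (edgeR adjusted p = 5.16e-08). Gm13057, picked after its values were seen, is annotated over an overlapping span. It had 4 counts in HET replicate 1 and at most 0.0432 in KO libraries. The division of reads between these entries is uncertain, and the bound takes it as given. Gm13119, which RefSeq names Pramel31, was at 28.8, 30.0 and 22.2 CPM in KO and at 0.0194, 0 and 0.154 CPM in HET libraries (log2 fold change 8.96 ± 0.53, SE; edgeR adjusted p = 5.11e-05). Gm12794, or Pramel19, a member of the PRAME family active in early embryos and germ cells, was at 9.12, 11.6 and 9.27 CPM in KO and at 0 in HET libraries, at least 171-fold higher (edgeR adjusted p = 1.65e-06). The fourth, B020004J07Rik or Pramel17, was picked after its values were seen and was at 1.35 ± 0.331 CPM in KO and 0.0348 ± 0.0446 CPM in HET libraries (SD, n = 3 each; edgeR adjusted p = 0.00129).

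On chromosome 12, 5 predicted genes within 707 kb were called. BB287469 had the smallest p-value of the list, at 20.7, 24.4 and 19.6 CPM in KO and 0, 0 and 0.0221 CPM in HET libraries (edgeR adjusted p = 2.78e-08). Its neighbour Gm4027 was at 19.3, 20.5 and 17.1 CPM in KO and 0, 0 and 0.0662 CPM in HET libraries (edgeR adjusted p = 1.6e-06). Gm8300 averaged 6.73 ± 1.85 CPM, Gm5662 5.21 ± 0.393 CPM and Gm2016 0.826 ± 0.241 CPM in KO libraries (SD, n = 3), each with 3 counts or fewer in all HET libraries together.

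The remaining 4 were Dub genes of chromosome 7, which encode deubiquitinating enzymes of the Usp17 family and are near-identical copies of each other. Dub3 was at 11.8, 15.5 and 14.7 CPM in KO and at 0 in HET libraries, at least 239-fold higher (edgeR adjusted p = 8.44e-07). Dub1a was at 11.6, 12.6 and 10.7 CPM in KO and at 0 in HET libraries, at least 198-fold higher (edgeR adjusted p = 8.57e-07). Dub2a averaged 4.1 ± 1.12 CPM in KO libraries (SD, n = 3), against 1 count in all HET libraries together. Dub1 differed from its relatives in being present in HET cells, with 10.5, 13.5 and 14.0 CPM in KO and 5.17, 3.1 and 3.84 CPM in HET libraries (log2 fold change 1.65 ± 0.22, SE; edgeR adjusted p = 0.00101).

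Several other genes of the same stage were not called. Trim43c was at 0.636, 0.579 and 0.727 CPM in KO and 2.0, 1.14 and 0.883 CPM in HET libraries (log2 fold change -1.05 ± 0.39, SE; edgeR adjusted p = 0.145), and Trim43a had a log2 fold change of -0.47 ± 0.31 (edgeR adjusted p = 0.417). None of the 7 tested genes that missed the threshold exceeded 6.11 CPM in any library. The 14 genes below the filter, among them the Obox homeobox genes and the Tdpoz genes, reached at most 0.382 CPM. Obox3 was at 0.382, 0.0193 and 0.138 CPM in KO and 0.0194, 0.0681 and 0.0441 CPM in HET libraries, and Tdpoz3 had 5, 18 and 10 counts in KO and none in HET libraries; both were picked after their values were seen.

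**Figure D3:**
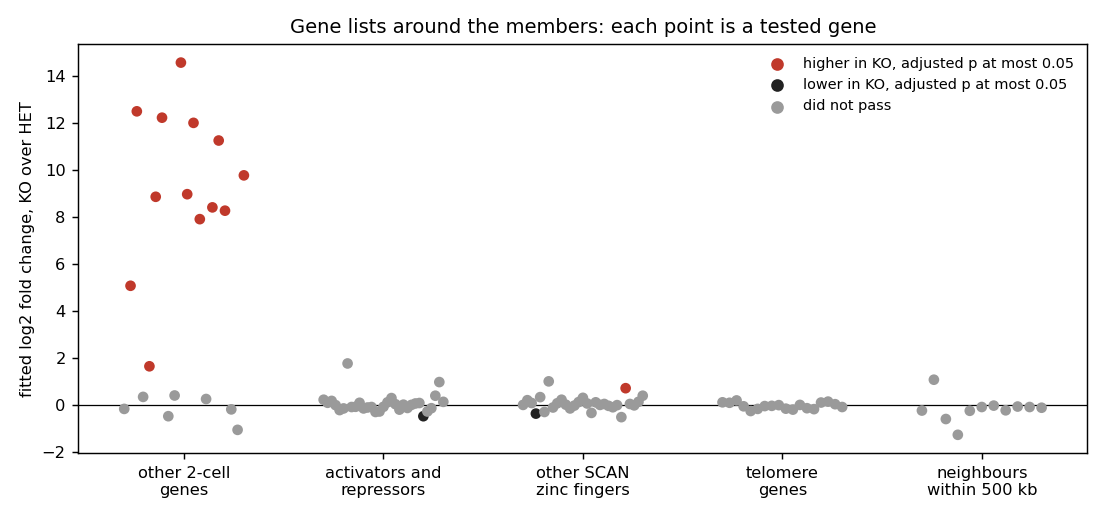
Fitted log2 fold change, KO over HET (vertical axis), of each tested gene of 4 lists (other 2-cell genes, activators and repressors, other SCAN zinc fingers, telomere genes) and of the neighbours within 500 kb; red points were called higher, black points lower and grey points did not pass at an adjusted p of 0.05. The 13 called 2-cell genes lie between 1.65 and 14.55, while the other 3 lists and the neighbours lie between -1.26 and 1.77; for genes at 0 in HET the fitted value depends on the prior count.

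Proteins known to switch Dux and Zscan4 on or off were covered by a list of their own. Of 34 such genes, 31 were tested, none was called higher and 1 was called lower, against 4.92% and 1.92% of all genes, so that both counts were near the shares of genes at large (edgeR; 4 higher and 3 lower at an unadjusted p of 0.05, and 2 higher and 1 lower by DESeq2), and their log2 fold changes ran from -0.47 to 1.77 around a median of -0.00. Trim28, the corepressor that silences retroviral elements and Dux, was at 201, 208 and 219 CPM in KO and 203, 214 and 212 CPM in HET libraries. Setdb1, the histone H3 lysine methyltransferase that Trim28 recruits, was at 80.7, 78.3 and 82.9 CPM in KO and 90.8, 89.2 and 87.2 CPM in HET libraries, with a log2 fold change of -0.14 ± 0.07 (SE; edgeR adjusted p = 0.288). The histone demethylase Kdm1a had a log2 fold change of 0.07 ± 0.09, the chromatin assembly factor subunit Chaf1a of 0.18 ± 0.12 and Smchd1, a chromatin protein that represses the human DUX4 array, of -0.10 ± 0.11 (SE; edgeR adjusted p = 0.686, 0.4 and 0.653).

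Zfp281, a zinc finger protein of pluripotent cells, was the gene called lower, with 32.8, 27.4 and 28.0 CPM in KO and 42.6, 40.1 and 39.5 CPM in HET libraries (log2 fold change -0.47 ± 0.10, SE; edgeR adjusted p = 0.0189). Its call was lost without HET replicate 2, HET replicate 3, KO replicate 2 or KO replicate 3, with adjusted p between 0.0531 and 0.0999. Trp53, which encodes p53, an activator of Dux after DNA damage in mouse cells, was at 385, 527 and 434 CPM in KO and 329, 352 and 339 CPM in HET libraries. Its groups did not overlap, but its log2 fold change of 0.40 ± 0.11 (SE) missed the threshold (edgeR adjusted p = 0.0593), and it passed by DESeq2 (adjusted p = 0.00614) and in edgeR without KO replicate 1 (adjusted p = 0.0121), without a filter on low counts (adjusted p = 0.049) and with the replicate number as a block (adjusted p = 0.0478). Ncl, or nucleolin, which acts with a LINE1 transcript to silence Dux in embryonic stem cells, had a log2 fold change of -0.27 ± 0.09 (SE; edgeR adjusted p = 0.114).

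The Dux activators Dppa2 and Dppa4 had few reads. Dppa2 was at 1.12, 0.174 and 0.0786 CPM in KO and 0.253, 0.255 and 0.177 CPM in HET libraries, so that a single KO library set its mean. Dppa4 had 4, 10 and 4 counts in KO and 1, 1 and 0 counts in HET libraries and was below the filter. Dppa3, a maternal factor of the same list picked after its values were seen, was also below the filter, with 23, 7 and 1 counts in KO and 0, 0 and 1.75 in HET libraries (ratio 18.4, 95% counting interval 4.09 to 139). Its KO and HET values overlapped, and the interval does not cover the spread between libraries. The highest fitted log2 fold change of this list, 1.77 ± 0.55 (SE; edgeR adjusted p = 0.122), belonged to Tbx3, picked after its values were seen. Tbx3 was at 14.1, 5.69 and 3.67 CPM in KO and 1.75, 3.37 and 1.77 CPM in HET libraries, in the same order over KO libraries as the endothelial and stromal marker sums, whose part was not tested.

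Other genes with a SCAN domain, the domain through which such proteins pair, were called about as often as genes at large. Of 29 tested, 1 was called higher, 1 lower and 27 did not pass (3.45% in each direction, against 4.92% and 1.92% of all genes), and the median log2 fold change was 0.05, against -0.003 over all genes. Zfp110 rose to 66.0, 81.3 and 66.5 CPM in KO, against 39.6, 46.9 and 43.7 CPM in HET libraries (log2 fold change 0.72 ± 0.11, SE; edgeR adjusted p = 0.00254). Zkscan3 fell to 71.5, 69.7 and 72.1 CPM in KO, against 95.7, 90.5 and 87.6 CPM in HET libraries (log2 fold change -0.36 ± 0.08, SE; edgeR adjusted p = 0.0181), a call lost without HET replicate 2, KO replicate 1 or KO replicate 2, with adjusted p between 0.0529 and 0.0879. Zscan18 and Zfp187 had log2 fold changes of 0.40 and -0.29 and missed the threshold (edgeR adjusted p = 0.0582 and 0.068).

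No gene of telomere maintenance, the process for which Zscan4 is known in stem cells, was called among 18 tested, a count near the 4.92% and 1.92% of all genes called higher and lower. This was so by edgeR, at an unadjusted p of 0.05 and by DESeq2, with 0 genes in each direction. Their log2 fold changes ran from -0.25 to 0.20, with a median of -0.04. The 2 with the smallest p were Atrx, a chromatin remodeller, at -0.19 ± 0.10, and Tinf2, a subunit of the shelterin complex, at 0.20 ± 0.12 (SE; edgeR adjusted p = 0.307 and 0.348).

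Markers of pluripotent cells, in which Zscan4 is also expressed, were mostly at low levels in both groups. Pou5f1 was at 0.891, 0.424 and 0.609 CPM in KO and 0.797, 0.63 and 1.06 CPM in HET libraries. Of 15 such genes found, 6 were tested and Klf2 was the 1 called higher (16.7% of the 6, against 4.92% of all genes), at 10.1, 6.44 and 5.87 CPM in KO and 3.66, 4.39 and 3.86 CPM in HET libraries (log2 fold change 0.91 ± 0.24, SE; edgeR adjusted p = 0.0482). Its call was lost without any 1 of 5 libraries, KO replicate 3 being the exception, with adjusted p between 0.0913 and 0.135. Prdm14 and Klf4, the uncalled genes with the smallest p, had log2 fold changes of 0.65 ± 0.55 and 0.12 ± 0.12 (SE; edgeR adjusted p = 0.518 and 0.579). Klf2 is also expressed in endothelium, whose marker sums are given above, and their part was not tested. The list summed to 50.7 to 66.0 CPM in KO and 45.4 to 53.5 CPM in HET libraries, most of it Klf4, which was at 51.9, 41.0 and 41.8 CPM in KO and 45.1, 37.1 and 41.7 CPM in HET libraries. Of the 9 genes below the filter, all picked after their values were seen, Sox2, Fgf4, Tdgf1 and Esrrb each reached at most 0.187 CPM. Utf1 had 2, 31 and 10 counts in KO and 0, 0 and 2 in HET libraries (ratio 22.3, 95% counting interval 5.81 to 190), Zfp42 had 10, 2 and 3 counts in KO and none in HET libraries, and Lin28a had 1, 4 and 3 counts in KO and 16, 10.7 and 7 in HET libraries.

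Genes next to the Zscan4 cluster, Dux and Zfp352 mostly had few or no reads, and none was called. Within 500 kb of these genes the annotation placed 37 other genes, of which 19 had no count in any library, 7 had reads but were below the filter (at most 0.212 CPM), and 11 were tested with none called, against 4.92% of all genes called higher and 1.92% lower (edgeR; 1 higher and 4 lower at an unadjusted p of 0.05, none higher and 1 lower by DESeq2). The median log2 fold change of the 11 was -0.11. The Zscan4 cluster lay among vomeronasal receptor genes of the Vmn1r family and their pseudogenes, and 16 of its 20 neighbours were at 0 in all libraries. Zik1, a zinc finger gene, was the single neighbour of the cluster with enough reads to be tested, at 24.2, 27.6 and 21.5 CPM in KO and 28.4, 23.2 and 24.8 CPM in HET libraries (log2 fold change -0.06 ± 0.12, SE; edgeR adjusted p = 0.81). Around Dux, 10 of 13 genes were tested. Smpdl3a, which encodes a phosphodiesterase, and Fabp7, which encodes a fatty acid binding protein, came closest to a call. Smpdl3a was at 9.38, 7.71 and 6.86 CPM in KO and 12.8, 10.8 and 12.4 CPM in HET libraries (log2 fold change -0.59 ± 0.16, SE; edgeR adjusted p = 0.0615), and it passed by DESeq2 (adjusted p = 0.0158) and without KO replicate 1 (adjusted p = 0.0311). Fabp7 had a log2 fold change of -1.26 ± 0.40 (SE; edgeR adjusted p = 0.101). Both passed with library totals (edgeR adjusted p = 0.0221 for Smpdl3a and 0.0453 for Fabp7) and with limma on both filtered TPM scales. The predicted gene Gm4981, picked after its values were seen, had 6.59, 3.5 and 8.7 estimated counts in KO and none in HET libraries. None of the 4 pseudogenes around Zfp352 had enough reads to be tested. Gm12633, also picked after its values were seen, had 5, 11 and 1 counts in KO and none in HET libraries, Gm12634 had 3 counts in KO replicate 1, and the others were at 0.

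**Figure D4:**
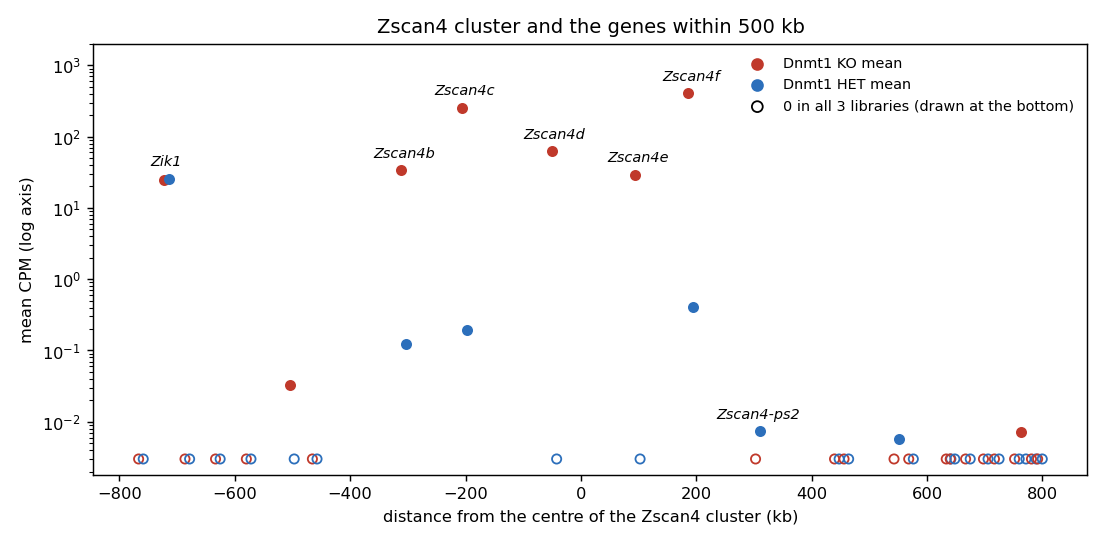
Mean CPM (log axis) in Dnmt1 KO, red, and Dnmt1 HET, blue, of the Zscan4 copies and of the 20 other genes within 500 kb, against distance in kb from the centre of the cluster; open circles at the bottom mark a mean of 0. The other 5 Zscan4 copies stand above 20 CPM in KO while Zscan4-ps2, whose reads may have been assigned to other copies, is at 0. Zik1 has about the same mean in both groups (24.4 in KO and 25.5 in HET), and the other neighbours are at or near 0.

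The genes whose pattern across the 6 libraries was closest to that of the Zscan4 family are given as a description. Since the family was near 0 in HET libraries, the closest genes had to be nearly silent there too. Each gene's CPM was divided by its own KO mean, and likeness was the root mean square difference from the family over 6 libraries, among 14106 genes with a KO mean of at least 1 CPM. Tex19.1, a gene of germ cells that restrains transposable elements, was the most alike at 0.0061, with 45.0, 56.3 and 43.0 CPM in KO and 0.0972, 0.17 and 0.11 CPM in HET libraries. Gm13040 (0.0077), Gm12794 (0.0129), Tmem92-ps (0.0143), BB287469 (0.0163) and Gm12800 (0.0213) followed. The median over all genes compared was 0.72, and 30 genes were below 0.05. Like the family, all 6 were highest in KO replicate 2, a feature that their choice by likeness to the family favours. KO replicate 2 was the single KO library with a high level of Y-linked transcripts (168 CPM, against 7.66 and 9.85 CPM in the others). Whether it held male cells only or cells of both sexes cannot be told, as the number of embryos is not given. In HET libraries the Y-linked level was 332, 9.65 and 268 CPM, and the family was at 1.73, 0.374 and 0.0883 CPM. The part of sex was not tested within KO. Dub1a ranked 24 and Dub3 ranked 69, while Dux and Zfp352 lay below the level needed for this comparison.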

How the data were processed

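Per the labels' protocols, RNA of sorted cap mesenchyme was sequenced on an Illumina HiSeq2000 after an ultra low input preparation. The tables deposited by the authors, 1 for each library, give estimated counts (fractional expected counts), TPM, length and effective length of every transcript, per the file headers. Kallisto and the build mm10 are named by the submitters' processing notes. Its version, the annotation of its index, trimming and strandedness were not given in the sources used here. Reads of antisense partners therefore cannot be told apart.

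Of 96626 transcripts, 74519 were assigned to 26567 genes by the identifiers of GENCODE vM1 (NCBIM37), and these held 92.4% to 92.82% of the counts. Positions are those of NCBIM37, not of the authors' build, and sequences are those of RefSeq GRCm38.p6. Estimated counts were summed per gene, rounded and compared, KO over HET without covariates, with edgeR 4.0.16 (R 4.3.3, limma 3.58.1) by its quasi-likelihood test with TMM factors, default expression filter, robust dispersions and Benjamini-Hochberg adjustment over all 16989 genes kept, at 0.05. The biological coefficient of variation was 0.21. A fold against HET libraries at 0 is a lower bound computed against 3 counts in each HET library. It does not cover reads that were assigned to a near-identical copy. With 1 to 3 HET counts in all, the ratio has an exact 95% binomial interval on the summed counts. That interval covers counting error only and not the spread between libraries. Alternatives were DESeq2 1.42.0, its size factors, library totals, no filter, limma on log2(TPM + 0.1) and log2(TPM + 1), replicate number as a block, sex as a covariate and each library left out. No libraries agreed within sampling noise (chi-square per degree of freedom 13.6 to 41.5 within groups).

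The genes described, the gene lists and the motifs were chosen with earlier results of these data known. Genes named are the members and Zscan4 copies, in each list the called genes up to the 12 smallest p and the 2 uncalled genes with the smallest p (for markers of cells other than pluripotent ones, only the called genes), the 6 genes most like the family, and a set of regulators (Trim28, Setdb1, Kdm1a, Chaf1a, Dppa2, Dppa4, Smchd1 and Dnmt1) with the markers Six2 and Pou5f1. Other names are said to be picked after their values were seen. Genes called in the lists of endothelium, stroma and tubule were Emcn, Lum, Ret and Lrp2, all higher in KO. These were 1 of 10 (10.0%), 1 of 8 (12.5%) and 2 of 10 (20.0%), against 4.92% of all genes. Each of these calls was lost in some settings. With sex as a covariate, the edgeR adjusted p was 0.116 for Emcn, 0.115 for Lum and 0.102 for Lrp2. Without HET replicate 3 it was 0.0602 for Ret. None of the macrophage list was called. List symbols that matched no gene were not analysed here.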

Additional observations from a re-analysis of the deposited data

How the results depend on the processing

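Over the settings tried, 202 summary results stayed within 1.5 times their main value or their spread and 42 moved. For single members the spread was the SD of the KO libraries. Leaving out a KO library cannot by itself shift their mean that far. For the family the spread was 2.15 on the log2 scale. The rise of its ratio from 1078 to 3405 without HET replicate 1 was therefore counted as staying. The 202 include these results, so that count does not show that members and family were stable. No called gene named in the text changed direction, but lower calls outnumbered higher ones over all genes with library totals and on the filtered TPM scales. The 13 called genes of the 2-cell list ranged from 11 to 14 and none was lower in any setting, and no telomere gene was called in any. The Zscan4 family ratio (log2 10.07) was between 9.55 and 11.73 on the log2 scale with each library left out, the highest without HET replicate 1. KO mean CPM with each library left out ranged from 242 to 275 for Zscan4c, 57.1 to 66.4 for Zscan4d, 26.3 to 32.3 for Zscan4e, 385 to 429 for Zscan4f, 0.655 to 0.927 for Dux and 0.846 to 1.14 for Zfp352. TPM in place of CPM was run for the family (log2 9.69) and not for single members, whose TPM the report gives.

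The count of all genes called higher, 836, was 1346 by DESeq2, 454 and 457 with limma on log2(TPM + 0.1) and log2(TPM + 1), 548 on log2(TPM + 1) without a filter and 526 to 916 with each library left out (526 without KO replicate 2). The count of lower genes, 327, was 586 by DESeq2, 1883 with library totals, 756 and 761 on the filtered TPM scales, 162 with sex as a covariate and 116 to 272 with each library left out (116 without KO replicate 2). These settings move the median log2 fold change over all genes to -0.166 with library totals, -0.142 on log2(TPM + 0.1) and -0.126 on log2(TPM + 1).

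For activators and repressors, the 0 genes called higher became 2 by DESeq2, 1 without a filter, 1 with the replicate block and 0 to 1 with each library left out. The 1 lower became 5 with library totals, 2 on each filtered TPM scale, 0 on log2(TPM + 1) without a filter and 0 to 1 with each library left out. For SCAN genes, the 1 higher became 2 by DESeq2 and 0 on log2(TPM + 1) without a filter. The 1 lower became 2 by DESeq2, 3 with library totals, 2 on each filtered TPM scale, 0 without the TPM filter, 0 with sex as a covariate and 0 to 1 with each library left out. Among neighbours, the 0 lower became 1 by DESeq2, 4 with library totals, 3 on each filtered TPM scale and 0 to 1 with each library left out. The cause of these moves was not tested.

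Replicate numbers showed no sign of pairing the samples. Same-numbered KO and HET libraries had correlations of -0.068, -0.031 and -0.045 between their deviations from the group means, and the other pairs had -0.114 to 0.135. These values cannot show whether same-numbered libraries shared a litter, which the labels do not give. The replicate block gave 707 higher and 265 lower genes and 13 called 2-cell genes.

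With 3 libraries a group and levels near 1 CPM, Dux and Zfp352 rest on 118 and 143 KO counts. Division among near-identical copies is less certain than the family sum.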
